A study of Mus musculus with 32 samples.

Results

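Dppa2, Dppa3, Dppa4, Dppa5a, Tdgf1, Utf1 and L1td1 are genes of mouse embryonic stem cells and early embryos whose transcripts were followed during reprogramming. They are 7 of the 24421 genes in the deposited tables. The members were taken by gene symbol in every library, and their levels were read in the cells left after barcodes listed by the authors as irradiated feeder cells were dropped. The series is titled as a search for checkpoints of induced pluripotency in single cells. It holds 32 libraries made in droplets from transcript 3′ ends, in 16 groups of 2 libraries named A and B.

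The starting cells were mouse embryonic fibroblasts (MEF, untreated). Doxycycline at 2 ug/mL was given to reprogramming cultures on irradiated feeders. The first course stayed in medium with serum and LIF alone and was sampled on days 3, 6, 9 and 12 (FBS). The second course also received ascorbic acid at 50 ug/mL, the DOT1L inhibitor SGC0946 at 5 uM and, 12 h later, 2i, which is the GSK3 inhibitor CHIR-99021 with the MEK inhibitor PD-0325901. It was sampled on days 2, 4 and 6 (A2S). Leaving out SGC0946 gave A2, leaving out ascorbic acid gave S2 and leaving out 2i gave AS, each sampled on days 4 and 6. V6.5 embryonic stem cells (ESC) were measured in serum and LIF, and after 2 days with the same additions as the A2S course (ESC A2S). The labels used here describe neither the doxycycline-driven transgene nor whether a line is a single clone, and they do not say whether A and B came from separate cultures. A p-value here therefore reflects how far the A and B libraries differ, which may be technical.

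Dppa2 and Dppa4 are SAP-domain DNA-binding proteins that pair with each other, sit at promoters carrying both activating and repressive histone marks, and can switch on genes of the two-cell embryo. Dppa3 (Stella, PGC7) is a maternal factor that protects DNA methylation in the zygote and restrains the maintenance factor Uhrf1. Dppa5a (Esg1) is a KH-domain RNA-binding protein. Tdgf1 (Cripto) is the membrane-anchored co-receptor of Nodal. Utf1 is a chromatin-bound protein of undifferentiated cells that acts at bivalent genes, and L1td1 is an RNA-binding protein derived from the first open reading frame of a LINE-1 retrotransposon. Reprogramming studies use several of them as signs of a late, ESC-like state.

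The members lie on 5 chromosomes of mm10 (GENCODE positions). Dppa4 (chr16:48283733-48294237, plus strand) and Dppa2 (chr16:48303908-48319723, plus strand) are neighbours, 9.67 kb apart. Dppa3 is at chr6:122626410-122630272, Utf1 at chr7:139943789-139945112 and L1td1 at chr4:98726734-98738480, all on the plus strand. Dppa5a at chr9:78367052-78368177 and Tdgf1 at chr9:110939603-110946158 are on the minus strand. No annotated gene overlaps a member. Dppa3, Dppa5a and Tdgf1 have annotated related copies, and since the counting program is not given in the sources used here, reads could have been split between copies and these levels are uncertain to that extent.

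RefSeq promoters (GRCm38.p6) were available for 3 of the 7 members, and they are printed because the order of appearance described below turns on these 3 genes. Each runs 5′ to 3′ up to the annotated start, on the gene's strand, with matches to the searched motifs in capitals.
Tdgf1, chr9:110946159-110946408, minus strand: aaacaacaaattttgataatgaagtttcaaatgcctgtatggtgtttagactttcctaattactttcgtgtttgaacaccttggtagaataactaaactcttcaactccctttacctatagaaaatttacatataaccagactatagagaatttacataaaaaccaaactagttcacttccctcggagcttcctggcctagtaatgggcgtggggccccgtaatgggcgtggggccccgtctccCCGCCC
Utf1, chr7:139943606-139943788, plus strand: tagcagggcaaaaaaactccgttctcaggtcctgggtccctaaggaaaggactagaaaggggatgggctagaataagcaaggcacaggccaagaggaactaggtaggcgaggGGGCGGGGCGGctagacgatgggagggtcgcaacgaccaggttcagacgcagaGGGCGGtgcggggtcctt
L1td1, chr4:98726504-98726733, plus strand: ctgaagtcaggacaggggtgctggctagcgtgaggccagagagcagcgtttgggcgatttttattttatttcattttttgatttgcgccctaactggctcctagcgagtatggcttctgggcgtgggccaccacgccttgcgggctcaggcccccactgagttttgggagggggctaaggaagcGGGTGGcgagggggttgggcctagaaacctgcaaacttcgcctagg

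Motifs were searched on both strands of the 250 bases before the RefSeq start. The GC box (GGGCGG) had 4 matches at Utf1, of which 3 are in the printed stretch and 2 overlap, 1 match at Tdgf1 and 0 at L1td1. It is held by 32.7% of 32851 promoters of the same length. The KLF motif (CCACCC), in 28.1% of promoters, had 1 match, at L1td1. No match to the octamer (ATGCAAAT, in 1.6% of promoters), the SOX motif (ACAAAG, 16.5%), the nuclear-receptor response element (AAGGTCA, 4.08%) or the E-box (CACGTG, 6.02%) lay in these 3 windows. The ratio of observed to expected CpG was 0.648 for Tdgf1, 0.638 for Utf1 and 0.566 for L1td1, above the median of 0.374 over all promoters and below the upper quartile of 0.723.

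Between 138 and 431 cells were kept per library, with 1727490 to 8848775 UMIs (unique molecular identifiers, counted transcripts) per library. Cells were shallowest in FBS day 9 A, with a median of 5240 UMIs, and deepest in A2S day 2 B, with 23194.5. Replicates differed most in AS day 4, where chi-square per degree of freedom was 8.10 against at most 3.47 in the other groups. The summed level of 6 ESC markers was 0.332 to 1.81 CPM (counts of a gene scaled to a common library total) in MEF, with Pou5f1, Zfp42 and Sall4 at 0, and 1789 to 2024 CPM in ESC. The sum of 20 fibroblast markers was 28420 to 29980 CPM in MEF and 439.5 to 476 CPM in ESC, with Col6a3, Postn, Dcn and Pdgfra at 0 in ESC. Levels below are summed UMIs of a library in CPM, scaled between libraries. A lower sum cannot tell fewer expressing cells from less RNA per cell.

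**Figure D1:**
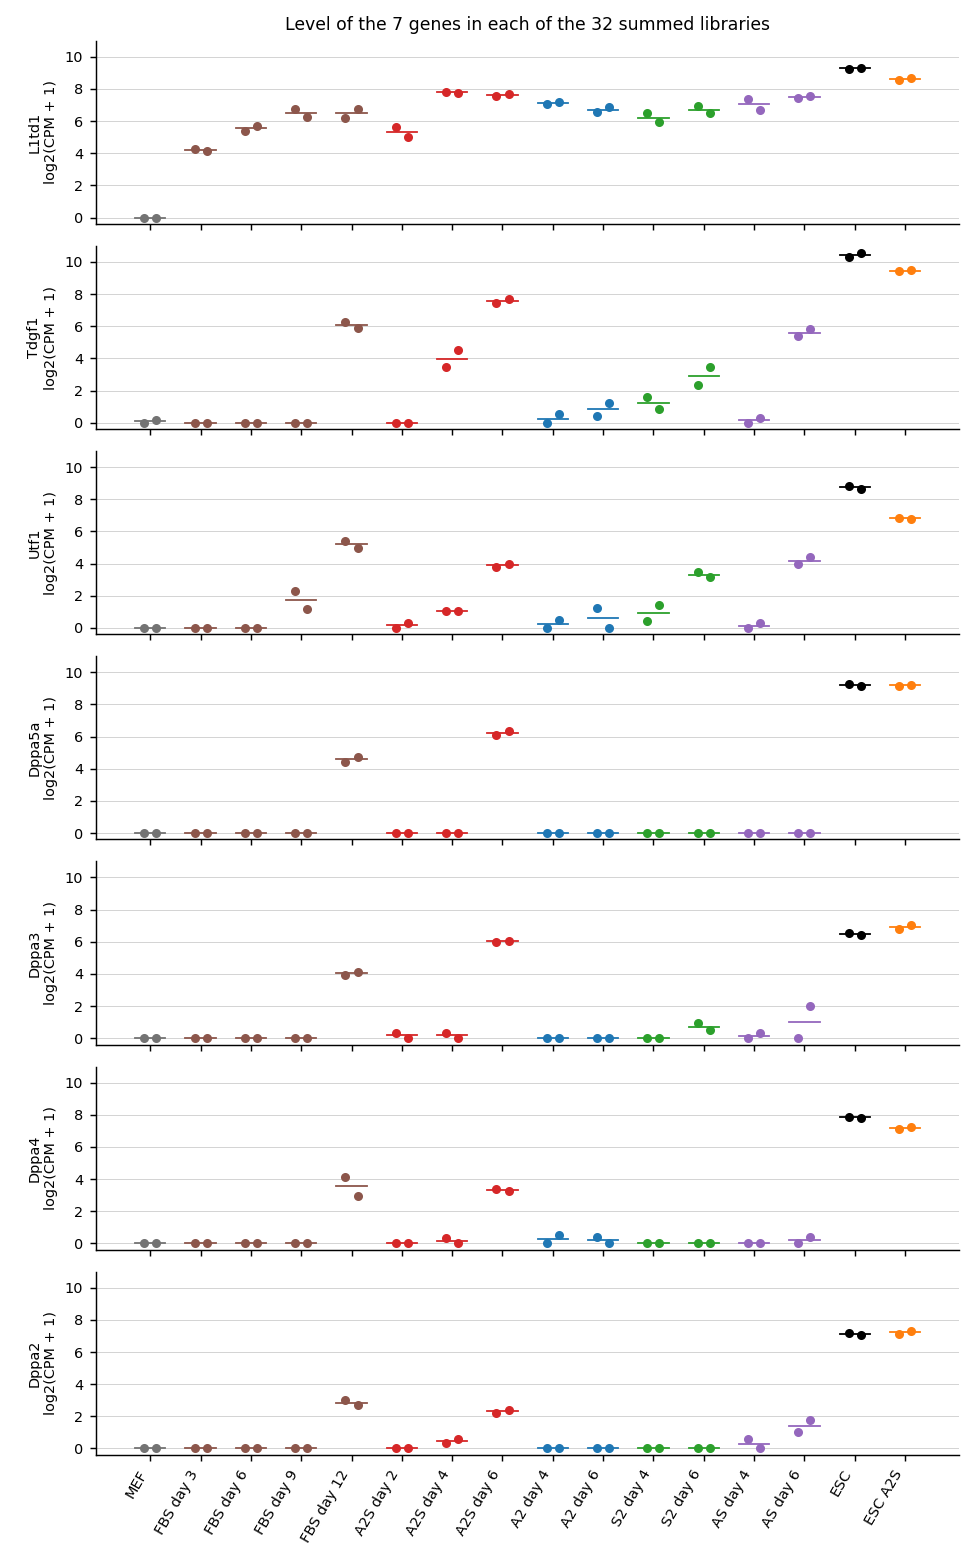
Level of each of the 7 genes as log2(CPM + 1), with the 16 groups along the axis, a point for each library and a line for the mean of A and B. L1td1 is above 0 in every doxycycline-treated group, while Dppa5a is above 0 in FBS day 12, A2S day 6, ESC and ESC A2S alone.

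The 7 genes were absent or nearly absent in MEF and abundant in ESC. In ESC, Tdgf1 was at 1280 and 1509 CPM, L1td1 at 614 and 634, Dppa5a at 607 and 557, and Utf1 at 460.4 and 398. Dppa4 was at 234 and 220.2 CPM, Dppa2 at 144 and 131, and Dppa3 at 94.2 and 84.1. In MEF, 1 UMI of Tdgf1 was counted in library B and none of the other 6 genes in either library. A gene was called where edgeR's quasi-likelihood test, adjusted by Benjamini-Hochberg over 13229 genes, gave an adjusted p under 0.05. Called higher in ESC than in MEF were 7 of 7 members, beside 36.3% of all genes tested. Where a group had no UMI the fold is a lower bound against 3 UMIs over that group: L1td1 was at least 2861-fold higher, and the lower bounds were 2658-fold for Dppa5a, 1956-fold for Utf1, 1037-fold for Dppa4, 629-fold for Dppa2 and 407-fold for Dppa3. Tdgf1, with its 1 UMI in MEF, had a UMI ratio of 19262 (95% counting interval 3456 to 760900).

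L1td1 was the member that appeared first. In the serum course it was at 18.3 and 16.9 CPM on day 3, 40.7 and 51.0 on day 6, 105 and 74.3 on day 9, and 72.7 and 106 on day 12. Both libraries of each day up to day 9 lay above those of the day before, and days 9 and 12 overlapped. From day 3 to day 6, L1td1 was the 1 member called higher (log2 fold change 1.36 ± 0.28 SE, edgeR adjusted p = 2.53e-04), beside 18.8% of all genes. In the same step the 12 interferon-response genes, a list set from earlier results as high in listed feeder cells, had 12 called lower. Over all genes, 19% were called lower, and no support is drawn from the count of this list. Listed barcodes went from 35.8% and 26.9% to 7.46% and 7.08% of a library. The part of these changes in the level of L1td1 was not tested. From day 6 to day 9, L1td1 (0.98 ± 0.23, edgeR adjusted p = 0.00653) and Utf1 were called higher, 2 of 7 members beside 4.9% of all genes. Utf1, at 0 UMIs on day 6, was at 3.88 and 1.28 CPM on day 9, at least 4.88-fold higher (edgeR adjusted p = 0.0149). Both calls were lost without FBS day 6 A or without FBS day 9 A (L1td1 0.79, adjusted p = 0.132, and 0.70, adjusted p = 0.152, both edgeR), and that of Utf1 also without FBS day 6 B.

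The other members appeared between days 9 and 12 of the serum course. The Nodal co-receptor gene Tdgf1 went from 0 UMIs to 77.3 and 58.0 CPM, at least 98.5-fold higher. Dppa5a reached 20.2 and 26.0 CPM (at least 34.1-fold), Dppa3 14.4 and 16.3 CPM (at least 22.6-fold), Dppa4 16.7 and 6.62 CPM (at least 16.7-fold) and Dppa2 6.93 and 5.60 CPM (at least 9.13-fold), each from 0 UMIs on day 9. Utf1 rose to 42.1 and 30.0 CPM (log2 fold change 3.82 ± 0.40 SE; leaving out FBS day 9 A gave 4.76, leaving out B gave 3.19), and these day 12 libraries lay above both libraries of day 9. Called higher were 6 of 7 members, beside 6.14% of all genes, and L1td1, at a log2 fold change of 0.01 ± 0.22, was not. At the depth of day 9, a count of 0 allows up to 1.45 CPM in library A and 1.28 CPM in B. Over the same interval the ESC markers went from 8.54 to 10.7 CPM in sum to 169 to 227 CPM, while the fibroblast markers were at 14250 to 15070 CPM on day 9 and 14600 to 15920 CPM on day 12. The 12 macrophage and blood markers summed to 148 to 163 CPM on day 9 and 125 to 351 CPM on day 12. The part of these markers in the members' levels was not tested.

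In the A2S course L1td1 again came first and Tdgf1 followed before the rest. L1td1 was at 48.0 and 31.4 CPM on day 2 and at 226 and 218 CPM on day 4 (log2 fold change 2.496 ± 0.21 SE). Tdgf1, with no UMI on day 2, was at 9.81 and 22.0 CPM on day 4, at least 37.6-fold higher. These were the 2 members called higher from day 2 to day 4, beside 13.8% of all genes. On day 4 the other 5 members had at most 1.09 CPM in any library, and Dppa5a had no UMI. In the same step 16 of 20 fibroblast markers and 12 of 12 interferon-response genes were called lower, beside 15.7% of all genes. The interferon-response list was set from earlier results as high in listed feeder cells, so no support is drawn from its count. The fibroblast sum went from 10380 to 10800 to 5938 to 6350 CPM. Listed feeder barcodes went from 27.2% and 22.8% to 0.417% and 0% of a library. The part of these changes in the members' levels was not tested.

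From day 4 to day 6 of the A2S course 6 of 7 members rose, beside 10.8% of all genes. Tdgf1 reached 174 and 203 CPM (log2 fold change 3.72 ± 0.24 SE, or 3.11 without A2S day 4 A), and Utf1 reached 12.9 and 14.8 CPM (3.64 ± 0.51). Dppa5a reached 67.6 and 80.1 CPM, at least 137-fold above its 0 UMIs on day 4. Dppa3 reached 63.3 and 64.3 CPM, a UMI ratio of 356 (95% counting interval 63.5 to 14097) to its 1 UMI on day 4. For Dppa4, at 9.53 and 8.69 CPM, the ratio was 50.9 (8.78 to 2043), and for Dppa2, at 3.69 and 4.18 CPM, it was 10.96 (2.73 to 95.5). Both day 6 libraries lay above both day 4 libraries for these 6 genes. L1td1, at 190.3 and 209 CPM on day 6, lay below both day 4 libraries without a call (−0.15 ± 0.18, edgeR adjusted p = 0.580). The call of Dppa2 was lost without A2S day 4 A (edgeR adjusted p = 0.0720). The ESC markers went from 44.1 to 45.6 CPM in sum on day 4 to 431 to 509.6 CPM on day 6, and the fibroblast markers from 5938 to 6350 CPM to 3795 to 4026 CPM; their part was not tested.

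Each of the 3 components of A2S was left out in turn, and the comparisons below share the 2 libraries of A2S day 6, so they are not independent of each other. Without SGC0946 (A2), members other than L1td1 were nearly absent on day 6. Tdgf1 was at 0.327 and 1.36 CPM (log2 fold change to A2S −7.67, or −9.03 without A2 day 6 B) and Utf1 at 1.31 and 0 CPM (−4.45, or −3.38 without A2 day 6 B; without A2 day 6 A no UMI was left, and the call stayed). Dppa2, Dppa3 and Dppa5a had no UMI and were at least 8.83-fold, 143-fold and 166-fold lower. Dppa4 had 1 UMI, a UMI ratio of 0.0163 (95% counting interval 0.000405 to 0.0944). L1td1 was at 94.9 and 115 CPM, a log2 fold change of −0.93 to A2S, and its libraries did not overlap those of A2S. All 7 members were called lower than in A2S day 6, beside 14.1% of all genes. The fibroblast markers summed to 11080 to 11230 CPM in A2 day 6 and the ESC markers to 29.9 to 31.7 CPM; their part was not tested.

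Without ascorbic acid (S2), Utf1 was the member nearest to its A2S level. It was at 9.88 and 7.86 CPM on day 6, both below the A2S libraries, with no call (log2 fold change −0.63 ± 0.32 SE, edgeR adjusted p = 0.189). Tdgf1 was at 4.14 and 10.2 CPM (−4.77; −5.51 without S2 day 6 B), Dppa3 at 0.957 and 0.393 CPM (−6.43; −7.22 without S2 day 6 A) and L1td1 at 121 and 88.4 CPM (−0.93). Dppa2, Dppa4 and Dppa5a had no UMI and were at least 7.44-fold, 17.3-fold and 139.6-fold lower. In all, 6 of 7 members were called lower than in A2S day 6, beside 7.73% of all genes. The marker sums in S2 day 6 were 82.9 to 88.4 CPM for ESC and 4668 to 5250 CPM for fibroblasts; their part was not tested.

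Without 2i (AS), Utf1 and L1td1 had no call against A2S, while Tdgf1 was lower and Dppa5a absent. Utf1 was at 14.6 and 20.0 CPM (log2 fold change to A2S 0.30, edgeR adjusted p = 0.405), overlapping A2S, and L1td1 at 174 and 185 CPM (−0.16, edgeR adjusted p = 0.522). Tdgf1 was at 40.4 and 55.5 CPM, below A2S by 1.99 on the log2 scale but above FBS day 6, S2 and A2. Dppa5a had no UMI, at least 167-fold lower, and Dppa4 had 1 UMI, a UMI ratio of 0.0162 (0.000402 to 0.0936). Dppa3 was at 0 and 3.04 CPM (−5.54, or −4.40 without AS day 6 A; without B no UMI was left, and the call stayed), and its UMIs in library B came from 1 cell. Dppa2 was at 1.04 and 2.37 CPM (−1.25 ± 0.49, edgeR adjusted p = 0.0468). In all, 5 of 7 members were called lower, beside 17.7% of all genes. The fibroblast markers summed to 11390 to 11810 CPM in AS day 6 and the ESC markers to 34.7 to 76.1 CPM; their part was not tested. The call of Dppa2 was lost with DESeq2 (adjusted p = 0.0811), without a count filter, with the replicate block (edgeR adjusted p = 0.0547), with listed cells kept, when the fit held these groups only, and without A2S day 6 A, A2S day 6 B or AS day 6 A.

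**Figure D2:**
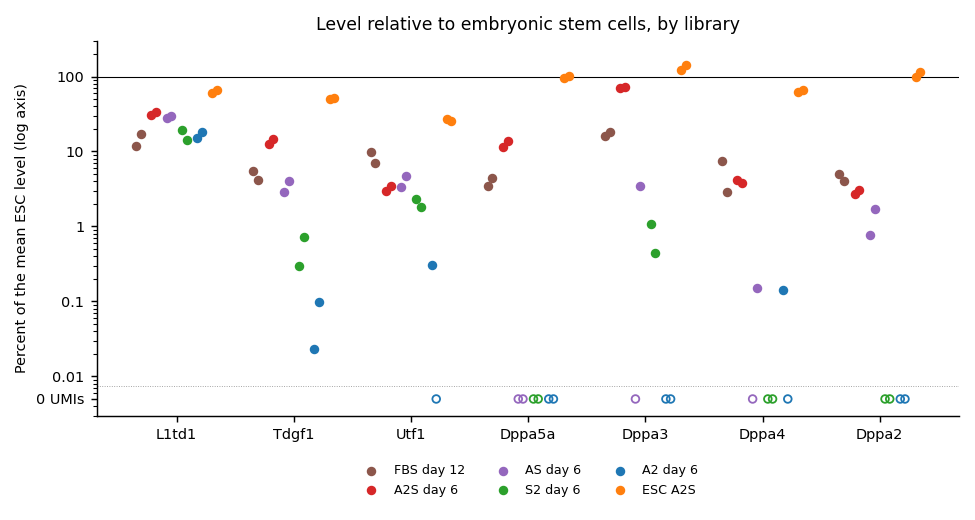
Level of each gene in each library as percent of the gene's own ESC mean (log axis), for 6 groups, with open points where no UMI was counted. Dppa3 of A2S day 6 stands at 71.1% and 72.2% of ESC, while Dppa5a, Tdgf1 and L1td1 stand between 11.6% and 33.5%.

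The same step from day 4 to day 6 was compared within each reduced medium. In A2, 0 of 7 were called higher by edgeR, beside 6.74% of all genes, and no member had an unadjusted p under 0.05; a fit of these groups only called L1td1 lower. In S2, Tdgf1 (2.16 ± 0.66 on the log2 scale, edgeR adjusted p = 0.0300) and Utf1 (3.19 ± 0.59; 2.41 and 4.56 when single libraries were left out) were called higher, 2 of 7 members beside 5.42% of all genes. The call of Tdgf1 was lost without S2 day 4 A, S2 day 4 B or S2 day 6 B, and L1td1 was called higher without a count filter only. In AS, Tdgf1 (UMI ratio 303, 95% counting interval 54.0 to 11999), Utf1 (109, 19.2 to 4349) and Dppa2 (10.4, 1.52 to 449.5; edgeR adjusted p = 0.0258) were called higher, 3 of 7 members beside 11.1% of all genes, and L1td1 was not (0.47, edgeR adjusted p = 0.0748; called without a count filter or without AS day 4 A). The call of Dppa2 was lost with DESeq2 and without AS day 4 B or AS day 6 B.

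Set against serum alone at the same day, A2S day 6 had 7 of 7 members called higher, beside 26.4% of all genes. Each of 6 members had 0 UMIs in FBS day 6, so the lower bounds of the fold were 368 for Tdgf1, 144 for Dppa5a, 125 for Dppa3, 27.0 for Utf1, 17.8 for Dppa4 and 7.67 for Dppa2, and L1td1 was 2.14 ± 0.21 higher on the log2 scale. In the same comparison 20 of 20 fibroblast markers were called lower (16940 to 17550 CPM in sum in FBS day 6 against 3795 to 4026). So were 6 of 9 tested macrophage and blood markers, beside 26.2% of all genes. The part of these markers was not tested. The reduced media share the same FBS day 6 libraries. A2 had L1td1 called higher, 1 of 7 members (2 without A2 day 6 B) beside 18.4% of all genes; S2 had Tdgf1, Utf1 and L1td1, 3 of 7 beside 24.1%; and AS had all but Dppa4 and Dppa5a, 5 of 7 beside 13.6%, of which Dppa2 and Dppa3 were lost without AS day 6 B or FBS day 6 A, and Dppa3 also without FBS day 6 B. Between the reduced media, Tdgf1 and Utf1 were called lower in A2 than in S2 (2 of 7, beside 6.77%), with the call of Tdgf1 lost without A2 day 6 A (edgeR adjusted p = 0.0520) or S2 day 6 B. AS had 4 of 7 called higher than S2 (beside 17.3%), with the call of L1td1 lost without S2 day 6 B, that of Dppa2 without S2 day 6 A, and that of Utf1 without AS day 6 B, S2 day 6 A or S2 day 6 B. AS had 5 of 7 called higher than A2 (beside 11.1%), with that of L1td1 lost without A2 day 6 A (edgeR adjusted p = 0.0799), that of Dppa2 without A2 day 6 B or AS day 6 B, and that of Dppa3 without A2 day 6 A, A2 day 6 B or AS day 6 B.

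The 16 groups were ordered by the mean level of each member. Below ESC and ESC A2S, Tdgf1 was highest in A2S day 6, followed by FBS day 12 and AS day 6, and no libraries of neighbouring groups overlapped down to A2S day 4. Utf1 was highest in FBS day 12, followed by AS day 6 and A2S day 6, which overlapped, and then by S2 day 6. L1td1 was highest in A2S day 4, then A2S day 6 and AS day 6, with no overlap between these neighbours, while the groups from A2 day 4 down to S2 day 4 each overlapped the next. Dppa5a and Dppa3 were highest in A2S day 6, next to the ESC groups, and then in FBS day 12. Dppa2 and Dppa4, again below ESC and ESC A2S, had their highest mean in FBS day 12, with the libraries of A2S day 6 below it for Dppa2 and overlapping it for Dppa4.

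The last day of each course was set against ESC, so these comparisons share the ESC libraries. At FBS day 12, 7 of 7 members were called lower than in ESC, beside 32% of all genes, with log2 fold changes of −2.53 for Dppa3, −2.79 for L1td1, −3.58 for Utf1, −4.31 for Dppa4 (−5.11 without FBS day 12 A), −4.37 for Tdgf1, −4.46 for Dppa2 and −4.64 for Dppa5a. At A2S day 6, 6 of 7 were called lower, beside 25.5% of all genes, from −1.64 for L1td1 to −5.12 for Dppa2, with Utf1 at −4.95, Dppa4 at −4.63, Dppa5a at −2.98 and Tdgf1 at −2.89. Dppa3, at 63.3 and 64.3 CPM against 94.2 and 84.1 CPM, was not called (−0.48 ± 0.22, edgeR adjusted p = 0.0710), although it was called lower without a count filter (adjusted p = 0.0467) and in a fit of the 2 groups alone (edgeR adjusted p = 0.00244). As a share of the ESC mean, Dppa3 was at 71.1% and 72.2% in A2S day 6.

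Compared directly, A2S day 6 was higher than FBS day 12 for Dppa3 by 2.05 on the log2 scale, Dppa5a by 1.67, Tdgf1 by 1.49 and L1td1 by 1.15, which is 4 of 7 members called higher beside 23.2% of all genes. Utf1 was lower in A2S (log2 fold change −1.37), the 1 member called lower, beside 24.7% of all genes: it was at 42.1 and 30.0 CPM in FBS day 12 and at 12.9 and 14.8 CPM in A2S day 6. Dppa2 (−0.66, edgeR adjusted p = 0.209) and Dppa4 (−0.32, edgeR adjusted p = 0.484) were not called, and the Dppa4 libraries of FBS day 12, at 16.7 and 6.62 CPM, lay on both sides of A2S. The fibroblast markers were at 14600 to 15920 CPM in FBS day 12 and 3795 to 4026 CPM in A2S day 6; their part was not tested.

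In single cells, thinned to 2000 UMIs each with shallower cells left out, the levels split into the share of cells with a UMI and the UMIs per such cell. No thinned cell of the MEF libraries, 298 and 431 cells, had a UMI of any member, which allows a share of up to 1.01% in A. Without thinning, Tdgf1 was in 1 of 431 cells of MEF B (0.232%), and no other member was in any MEF cell, at median depths of 22796 and 19102 UMIs. Tdgf1 was in 22.9% and 24.8% of thinned A2S day 6 cells (38.3% and 43.4% unthinned) and in 5.59% and 6.21% of FBS day 12 cells (9.73% and 9.47% unthinned). Dppa3 was in 9.17% and 11.8% of thinned A2S day 6 cells (19.6% and 20.5% unthinned), 3.78% and 3.68% of unthinned FBS day 12 cells and 52.2% and 55.5% of unthinned ESC. With a UMI, the unthinned Dppa3 mean per cell was 4.58 and 3.77 in A2S day 6 and 3.12 and 2.52 in ESC. The shares are a description, and no test of them was run.

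Utf1 was in 12.2% and 12.4% of unthinned A2S day 6 cells, 9.71% and 7.21% in S2, 5.49% and 10.6% in AS, and 7.03% and 7.89% in FBS day 12, against 92.8% and 95.1% in ESC. Dppa5a was in 13.9% and 14.3% of A2S day 6 cells, 7.03% and 5.26% of FBS day 12 cells and 90.6% and 93.3% of ESC. Dppa4 was in 7.83% and 6.98% of A2S day 6 cells and Dppa2 in 3.91% and 3.49%. These shares of Utf1, Dppa5a, Dppa4 and Dppa2 are given unthinned only, and depth differed between groups. Median UMIs per cell were 12707.5 and 10864.5 in A2S day 6, 9018 and 9457.5 in FBS day 12, and 16461.5 and 14853 in ESC. The part of depth in the differences between groups was not tested. L1td1 was more widespread: it was in 72.8% and 75.2% of A2S day 4 cells (33.8% and 39.0% after thinning) and in 13.04% and 10.9% of FBS day 3 cells. Cells with an L1td1 UMI were deeper than those without, with a median of 13870 against 7816 UMIs in A2S day 6 A.

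**Figure D3:**
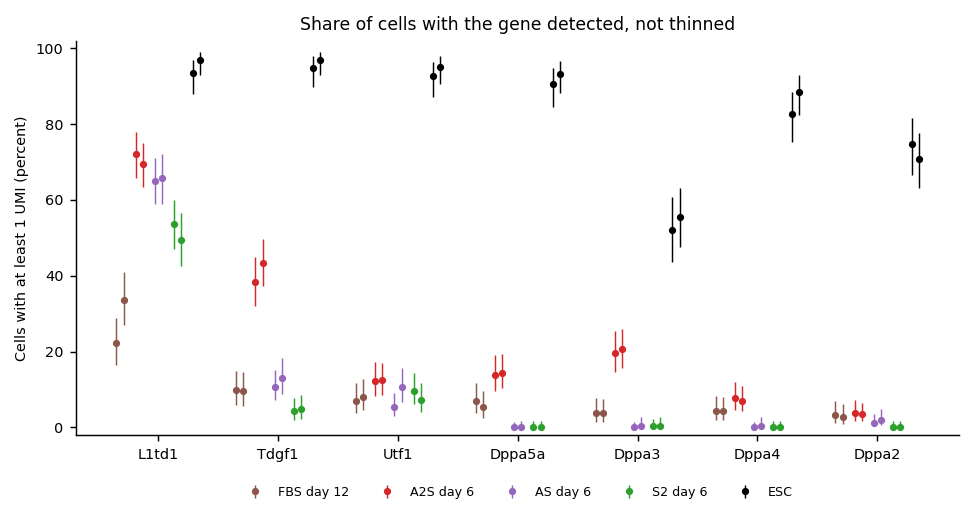
Percent of cells with at least 1 UMI of each gene, not thinned, as a point for each library of 5 groups with its 95% exact binomial interval, which covers counting error only. Tdgf1 of A2S day 6 sits at 38.3% and 43.4%, Dppa3 at 19.6% and 20.5%, and ESC is above both for each gene.

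Cells with several members at once were counted over the 6 members without L1td1, and the counts follow cell depth. Thinned to 2000 UMIs, 3 or more were found in 4.59% and 4.62% of A2S day 6 cells, 4.47% and 1.70% of FBS day 12 cells and 62.5% and 62.7% of ESC. Unthinned, the shares were 13.9% and 13.2%, 5.41% and 3.68% and 94.2% and 94.5%. After thinning, FBS day 12 A was close to both A2S libraries. All 7 were found in 2 and 0 thinned ESC and in no thinned cell of FBS day 12 or A2S day 6. Unthinned, all 7 were found in 4 and 2 cells of FBS day 12, 3 and 1 of A2S day 6, 50 and 69 of ESC, and in no cell of A2, S2 or AS day 6. In unthinned S2 day 6, 1 cell in each library had 3 or more of the 6, and in AS day 6 it was 0 and 2.

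**Figure D4:**
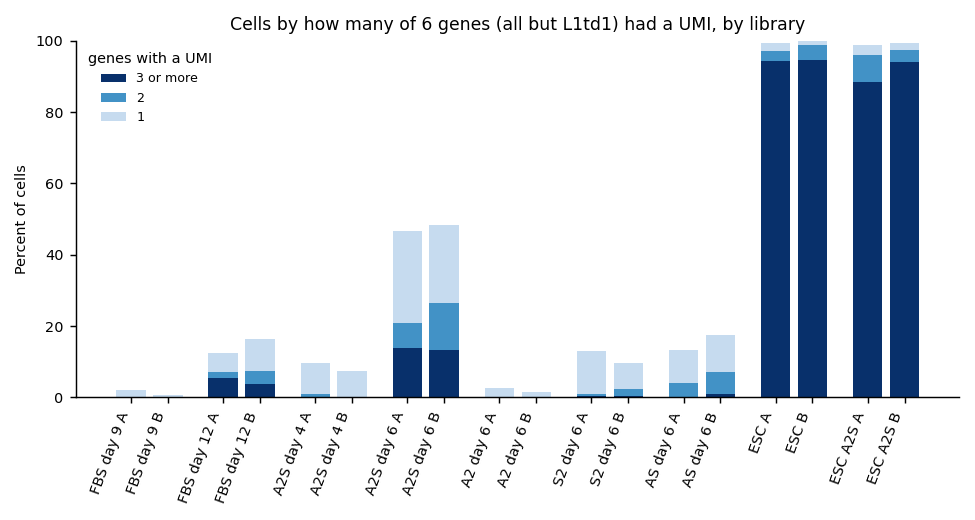
Percent of unthinned cells with a UMI of 1, 2, or 3 or more of the 6 genes other than L1td1, stacked, for each library. The groups are FBS day 9, FBS day 12, A2S day 4, A2S day 6, A2 day 6, S2 day 6, AS day 6, ESC and ESC A2S. The dark part, 3 or more genes, is 94.2% and 94.5% in ESC, 13.9% and 13.2% in A2S day 6, and 5.41% and 3.68% in FBS day 12; thinned to equal depth these are 62.5% and 62.7%, 4.59% and 4.62% and 4.47% and 1.70%.

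The shares were also split by whether a cell had a UMI of Nanog, a core pluripotency factor. In thinned A2S day 6 cells, Dppa3 was in 27.3% and 26.0% of 55 and 77 Nanog cells and in 3.07% and 4.97% of the rest, Tdgf1 in 45.5% and 54.5% against 15.3% and 10.6%, and Dppa5a in 18.2% and 15.6% against 6.13% and 3.73%. For L1td1 the thinned shares were 49.1% and 24.7% against 25.1% and 29.2%, with the Nanog cells above the rest in library A and below in B. Utf1 was in 1.82% and 9.09% of thinned Nanog cells against 1.84% and 1.86%, Dppa4 in 1.82% and 6.49% against 1.84% and 0.621%, and Dppa2 in 0% and 2.60% against 0 in both. Unthinned, Dppa3 was in 35.7% and 40.5% against 4.24% and 1.51%, Utf1 in 24.1% and 24.6% against 0.848% and 0.758%, Tdgf1 in 60.7% and 67.5% against 16.9% and 20.4%, and L1td1 in 85.7% and 87.3% against 59.3% and 52.3%. The median depth of Nanog cells was 12370 UMIs against 12910 in library A and 12480 against 9793 in B. In FBS day 12, 50.0% and 55.6% of 22 and 18 unthinned Nanog cells had Utf1, against 1.23% and 2.91%. Of unthinned AS day 6 Nanog cells, 54.5% and 60.7% of 22 and 28 had Tdgf1 against 6.44% and 5.59% of the rest, and 36.4% and 46.4% had Utf1 against 2.58% and 5.03%, but none had Dppa5a. In unthinned S2 day 6, 24.6% and 24.4% of 61 and 45 Nanog cells had Utf1 against 4.54% and 2.45%, and none had Dppa2, Dppa4 or Dppa5a. The splits of FBS day 12, AS day 6 and S2 day 6 are given unthinned only, and the part of cell depth in them was not tested. How much free RNA in the droplets adds to the shares of all these groups was not tested.

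**Figure D5:**
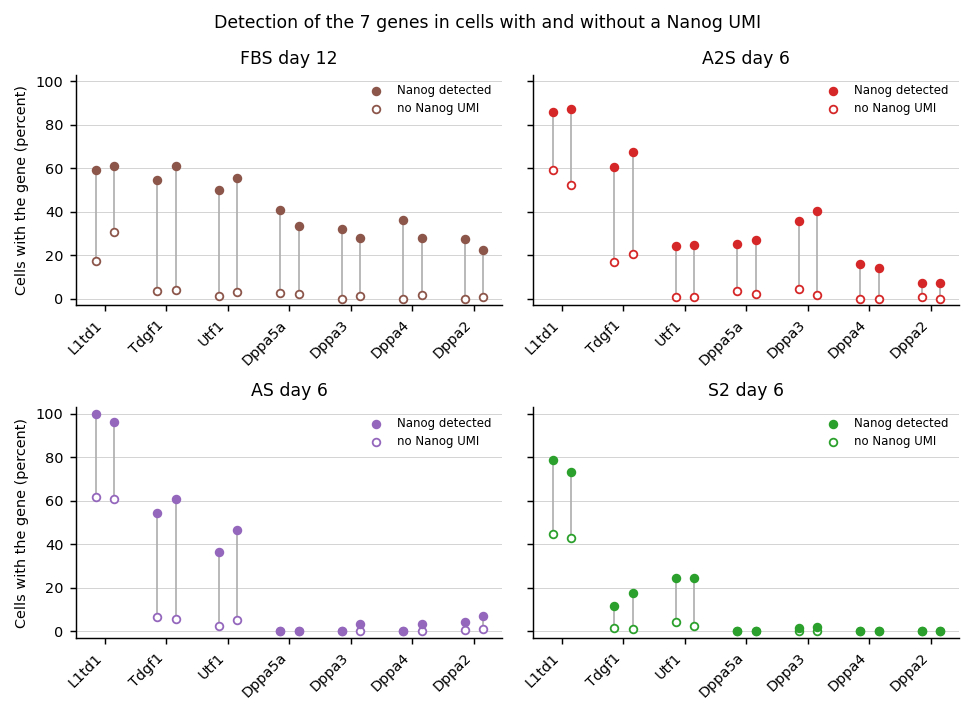
Percent of unthinned cells with a UMI of each gene among cells with a Nanog UMI (filled) and without one (open), as a joined pair for each library of FBS day 12, A2S day 6, AS day 6 and S2 day 6. In A2S day 6, Utf1 is in 24.1% and 24.6% of Nanog cells against 0.848% and 0.758% of the rest.

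In ESC, 4 of 7 members were called lower after 2 days of the A2S additions, beside 21.5% of all genes. Utf1 fell from 460.4 and 398 CPM to 115 and 109 CPM (log2 fold change −1.94 ± 0.16 SE), Tdgf1 from 1280 and 1509 CPM to 701 and 709.9 CPM (−0.98 ± 0.15), Dppa4 from 234 and 220.2 CPM to 139 and 149 CPM (−0.65 ± 0.17) and L1td1 from 614 and 634 CPM to 371 and 406 CPM (−0.68 ± 0.17). Dppa2 (0.11), Dppa3 (0.41, edgeR adjusted p = 0.118) and Dppa5a (0.00) were not called, and Dppa3 was called higher when only these groups were fitted (edgeR adjusted p = 0.00296). No difference between members was tested. The fibroblast markers summed to 829 to 917 CPM in ESC A2S against 439.5 to 476 CPM in ESC; their part was not tested.

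Genes of the members' pathways were followed in the same ESC comparison, in which 25.2% of all genes were called higher and 21.5% lower. Of 29 two-cell-stage genes listed, 26 were measured and 8 passed the count filter; 8 were called higher, and since a gene can pass the filter through the group where it is high, the count is given without support drawn from it. Of the genes on this list, Pramel7 was at least 118-fold higher and Syce1 by 1.95 on the log2 scale. Whether the listed genes mark the two-cell stage in ESC was not tested. In the KH-domain list, 4 of 5 tested were higher, with Khdc3 by 4.96 and Ooep, beside Dppa5a, by 1.32. The limit set by the filter holds for this list and those below too, and no support is drawn from their counts. Of 21 tested Nodal genes, 5 rose and 4 fell, both shares near those over all genes. Among the latter, Lefty1 fell by 7.41 and Lefty2 by 3.29. In the RNA-binding list (11 tested), Dazl rose by 6.29, and Lin28b fell by 3.89 and Lin28a by 3.30. Of the maternal-effect and methylation genes (11 tested), 5 rose and 3 fell, with Dnmt3a lower by 3.92 and Uhrf1 higher by 0.88. In the Polycomb and bivalent-chromatin list, counted without the members Dppa2 and Dppa4, 8 of 17 tested rose and 3 fell, including Cbx7 by 1.08.

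Between days 9 and 12 of the serum course, 8 of 21 Nodal genes were called higher and none lower, including Skil and Pmepa1; Lefty1 was also called but at 34.7 ± 41.7 CPM (SD, n = 2) it came mostly from 1 library. Of 40 other pluripotency genes, 31 were called higher and none lower, with a median of 2.06. Over all genes tested, 6.14% were called higher and 6.37% lower between these days. From day 4 to day 6 of A2S, 6 Nodal genes rose (Lefty1 by 2.73, Gdf3 by 1.82, Smad7 by 0.73) and 1 fell (Fst by 1.89), and 29 of 40 pluripotency genes rose and 3 fell. Tet1 rose by 2.45 and Dnmt3b by 1.39 in the same step, in which 10.8% of all genes were called higher and 13.8% lower.

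Dppa3 lies in a cluster with Nanog, 77.2 kb away, and Gdf3, 16.3 kb away. Nanog was at 259 CPM in A2S day 6, 67.7 in FBS day 12, 377 in ESC and 1236 in ESC A2S. Morc1, 111 kb from Dppa2, was at 18.8 CPM in ESC and 161 in ESC A2S (3.10 ± 0.23), while Dppa4 was lower there and Dppa2 had no call. Ooep, 7.93 kb from Dppa5a, had no UMI in FBS day 12 and 5.81 CPM in A2S day 6.

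Over the 16 group means of log2(CPM + 1), which share depth and library, the correlations among the 6 members other than L1td1 were between 0.875 and 0.986, and those of L1td1 with the others between 0.502 and 0.622. Among 12499 genes searched, the most similar gene was Rbmxl2 to Dppa2 (0.991) and to Dppa4 (0.991), Esrrb to Dppa3 (0.982), Pou5f1 to Dppa5a (0.982), Tex21 to Tdgf1 (0.970), Syt3 to Utf1 (0.971) and Isyna1 to L1td1 (0.951). With a pseudocount of 5 in place of 1 the first gene stayed for Dppa2, Dppa3, Dppa5a and L1td1. The set of the 3 most similar genes changed for 6 members. Tex21 and Syt3 had low counts, with 34 and 31 UMIs over both ESC libraries. Most members were at or near 0 in many groups, so their correlations rest largely on the few groups with counts.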

How the data were processed

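The deposited tables hold UMI counts as whole numbers, cells in rows and genes in columns, made by the authors on the ddSEQ droplet system with the SureCell 3′ kit, per the labels. The submitters' processing notes name bcl2fastq 2.19, STAR and mm10. Which annotation and counting program were used is not given in the sources used here. Of 8334 barcodes, 684 were dropped because the authors' list of irradiated feeder cells names them in that group, and 7650 were kept. Of the kept, 5 hold a sequence listed in another group, and 34 barcode sequences occurred in 2 libraries. No doublet caller was run.

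Kept cells of a library were added up, and edgeR 4.0.16 in R 4.3.3 (TMM factors, filterByExpr, quasi-likelihood test) was fitted once to 32 libraries and 16 groups, with 13229 genes tested, 23 comparisons and a Benjamini-Hochberg adjusted p under 0.05. Intervals and floors (3 UMIs) cover counting error only. Cells were thinned to 2000 UMIs. Alternatives were library totals, RLE factors, no count filter, DESeq2 1.42.0, a replicate block, keeping the listed cells, a minimum of 1000 UMIs per cell, compared groups alone, other thinning depths, a pseudocount of 5 and single libraries left out. The edgeR fit was tested on counts simulated for S2 day 6 against A2S day 6, with changes set in well-counted genes only. This test did not cover changes from few or no UMIs, or the single-cell shares. Python 3.11.15, numpy 2.4.6, pandas 2.3.3, scipy 1.17.1 and matplotlib 3.10.9 were used.

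The members, gene lists and tests were chosen with earlier results of these data known. Genes named are the members, the most correlated genes of each, their neighbours, and up to 3 called genes each way per list at 20 CPM or more; a part of these is described.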

Additional observations from a re-analysis of the deposited data

Results flagged for a closer look

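From day 4 to day 6, L1td1 libraries lay on different sides in different media. Both day 6 libraries lay below both day 4 libraries in A2S (log2 fold change −0.15, edgeR adjusted p = 0.580) and in A2 (−0.38, adjusted p = 0.205 in edgeR), and above them in AS (0.47, edgeR adjusted p = 0.0748). In S2 the libraries of the days overlapped (0.48, edgeR adjusted p = 0.135). No call was made in the fit reported. Fitted on the compared groups only, L1td1 was called lower in A2 (edgeR adjusted p = 0.0131). Without a count filter it was called higher in S2 (edgeR adjusted p = 0.0468) and in AS (edgeR adjusted p = 0.0160), and in AS also without AS day 4 A (edgeR adjusted p = 0.0020). The difference between media was not tested.

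Dppa4, Tdgf1, Utf1 and L1td1 were higher with the A2S additions in reprogramming cultures and lower with them in ESC. Against FBS day 6, A2S day 6 was higher by at least 17.8-fold for Dppa4, 367.7-fold for Tdgf1 and 27.0-fold for Utf1, and for L1td1 by 2.14 on the log2 scale. Against ESC, ESC A2S had log2 fold changes of −0.65 for Dppa4, −0.98 for Tdgf1, −1.94 for Utf1 and −0.68 for L1td1. Dppa2 (0.11), Dppa3 (0.41) and Dppa5a (0.00) had no call in ESC. The courses lasted 6 and 2 days, and the difference was not tested.

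Barcodes that the authors list as feeder cells, left out above, also held UMIs of the members. Of these 210 UMIs, 179 were in the ESC and ESC A2S libraries. In the reprogramming groups they were of L1td1, except 1 of Dppa3 in A2S day 2 and 1 of Tdgf1 in S2 day 4. The summed level in listed cells was 2.24 CPM in FBS day 3 and 15.7 CPM in AS day 4, from 6 UMIs each. It was 22.6 CPM in S2 day 4 from 10 UMIs and 27.6 CPM in A2 day 6 from 4 UMIs. In ESC A2S it was 157 CPM from 176 UMIs. The listed cells of MEF had 0, but in 23 cells with 360814 UMIs, too few to tell 2.24 CPM from 0. Kept cells were at 17.3 CPM in FBS day 3, 122.5 in AS day 4 and 80.2 in S2 day 4. They were at 107.6 CPM in A2 day 6 and 2140 in ESC A2S. The level in listed cells was 44.7 CPM in A2 day 4 and 28.2 CPM in ESC, each from 3 UMIs. In A2S day 2 it was 1.09 CPM, from 2 UMIs. The listed cells of the other 7 reprogramming groups held no UMI of a member.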

How the results depend on the processing

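The number of members called was within 1.5 times its value in 233 of the alternatives and moved in 20. Fitted on the compared groups only, it was 1 for FBS day 9 against day 6 and 1 for A2 day 6 against day 4. It was 3 for AS day 6 against FBS day 6 and 3 for AS day 6 against A2 day 6. Utf1 in the FBS fit, and Dppa2 and Dppa3 in the AS fits, did not pass the count filter there and were not tested. With single libraries left out it ran from 0 to 2 for FBS day 9 against day 6, 1 to 2 for S2 day 6 against day 4, for A2 day 6 against FBS day 6 and for A2 against S2 on day 6, 3 to 5 for AS day 6 against FBS day 6 and against A2 day 6, and 2 to 4 for AS against S2 on day 6. The replicate letters were not treated as pairs. Over 120 group pairs, the A-minus-B deviations correlated between −0.0858 and 0.0740. The correlation took in all tested genes, also those of low count, so it cannot exclude a pairing. The fit with a replicate block gave the same number of called members in 22 of 23 comparisons, and 4 in place of 5 for AS against A2S on day 6, where Dppa2 had −1.25.

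Sign changes occurred among values with no call. L1td1 from FBS day 9 to 12 was −0.087 when listed cells stayed in, and −0.30 to 0.27 with single libraries left out. L1td1 in A2 against S2 on day 6 was 0.013 without a count filter, 0.0074 with the replicate block, 0.044 when listed cells stayed in, and −0.20 to 0.24 with single libraries left out. With single libraries left out, Dppa4 in A2S day 6 against FBS day 12 ran from −0.83 to 0.50, Utf1 in A2 from day 4 to 6 from −2.295 to 4.06, and Dppa3 in AS from day 4 to 6 from −2.339 to 5.14 and in AS against S2 from −4.28 to 2.04. Dppa5a in ESC A2S against ESC was −0.0364 with RLE factors, −0.0365 with DESeq2, −0.024 without a count filter, −0.0014 with the replicate block, −0.034 in these groups alone, −0.18 when listed cells stayed in, and −0.059 to 0.064 with single libraries left out. Dppa2 there was −0.077 when listed cells stayed in. The cause of each change was not tested. Shares of cells moved in 159 cases and kept within the spread in 113, over other thinning depths, no thinning and listed cells kept. Low counts limit Dppa2, Dppa3, Dppa4 and Dppa5a outside FBS day 12, A2S day 6, ESC and ESC A2S. Dppa2 had 23 UMIs in FBS day 12 and 25 in A2S day 6, so it is limited there too. Outside these groups, S2 day 6 and AS day 6, Utf1 had at most 11 UMIs over both libraries, in FBS day 9. Leaving out A2S day 4 as well, Tdgf1 had at most 8, in S2 day 4.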
